A study of Homo sapiens with 6 samples.

Results

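The genes that make, break down and sense active vitamin D were followed in HaCaT cells, an immortalized line of human skin keratinocytes, with and without histamine. They are 7 of the 20046 genes annotated on the arrays, CYP2R1, CYP27A1, CYP27B1, CYP24A1, VDR, RXRA and RXRB. All probes annotated to them were taken, 8 of 47322 in all, with 2 for VDR and 1 for each other gene. The genes were chosen with the histamine and control values of these same arrays known, so their differences are given as a description, without a test. Of the 8 probes, 6 passed the detection filter and represent 6 of the 7 genes.

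Total RNA was measured on Illumina HT12 bead arrays, 1 array per sample. The control group held 3 samples that the labels name only as control, and the histamine group held 3 samples kept in 1 µg/ml histamine for 24 h. Both groups were the same line in DMEM medium (1.5 mM calcium, 10% serum); serum supplies vitamin D metabolites that were not measured here. The labels call the samples a triplicate and do not say whether they were separate cultures, so p-values cover only the spread among these 6 arrays, part of which could be technical.

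Vitamin D becomes a hormone through successive hydroxylations. CYP2R1 and CYP27A1 make calcidiol, the circulating form, CYP27B1 makes the hormone calcitriol from it, and CYP24A1 starts the breakdown of both. Calcitriol binds VDR, a nuclear receptor that pairs with a retinoid X receptor such as RXRA or RXRB on DNA, and CYP24A1 is the classic gene that this pair induces. Keratinocytes can carry out the whole route themselves, and in the epidermis calcitriol is known for its effects on growth, differentiation and antimicrobial defence.

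Arrays were comparable in signal, and 1 stood apart. The median probe signal ran from 121 to 142, and 36.7% to 40.9% of probes were detected per array, that is, had a detection p-value under 0.05 against negative control beads. All 8 keratinocyte markers on the array were detected on every array. The summed linear intensity of 17 skeletal muscle markers was 555 to 589 on the control arrays, 37831 on histamine replicate 1, and 1784 and 1546 on histamine replicates 2 and 3. For that reason the changes of CYP24A1, CYP27B1, VDR and RXRA are also given without histamine replicate 1. Replicates 2 and 3 also exceeded every control array, so leaving out replicate 1 does not remove the group difference in these markers. Kidney tubule, the main site of calcitriol synthesis in the body, was represented by 1 detected marker, SLC34A1. The other 7 of its 8 markers were detected on no array, and the summed intensity of the list was 213 to 229 in the control group and 212 to 233 in the histamine group.

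Both enzymes that handle calcitriol were higher with histamine, while the means of the hormone receptor and of its partner RXRA were lower by smaller amounts. CYP24A1 was detected on no control array and on all 3 histamine arrays, at least 4.60-fold higher after background correction and at least 2.11-fold higher without it. CYP27B1 was 2.77-fold higher. The VDR mean was 1.49-fold lower and that of RXRA 1.34-fold lower, and RXRB and CYP27A1 overlapped between the groups. CYP2R1 was detected on no array. The groups were fully separate for 4 of the 6 probes that passed the filter, against 37.3% of all 17871 such probes, and since the genes were chosen on this contrast nothing is read from that count. CYP24A1 passed the filter through its 3 histamine arrays alone.

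For the other genes of the pathway, described further on, rose and fell mean an adjusted p-value under 0.05 in a limma fit over all 17871 probes. By that rule 21.9% of probes passed, 11.0% higher and 10.9% lower with histamine. Read on 1 probe per gene, 20.4% of 10406 genes passed, 9.02% higher and 11.4% lower. The lists of other genes were also chosen with earlier results of these data known, so their shares are a description and not a test.

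**Figure D1:**
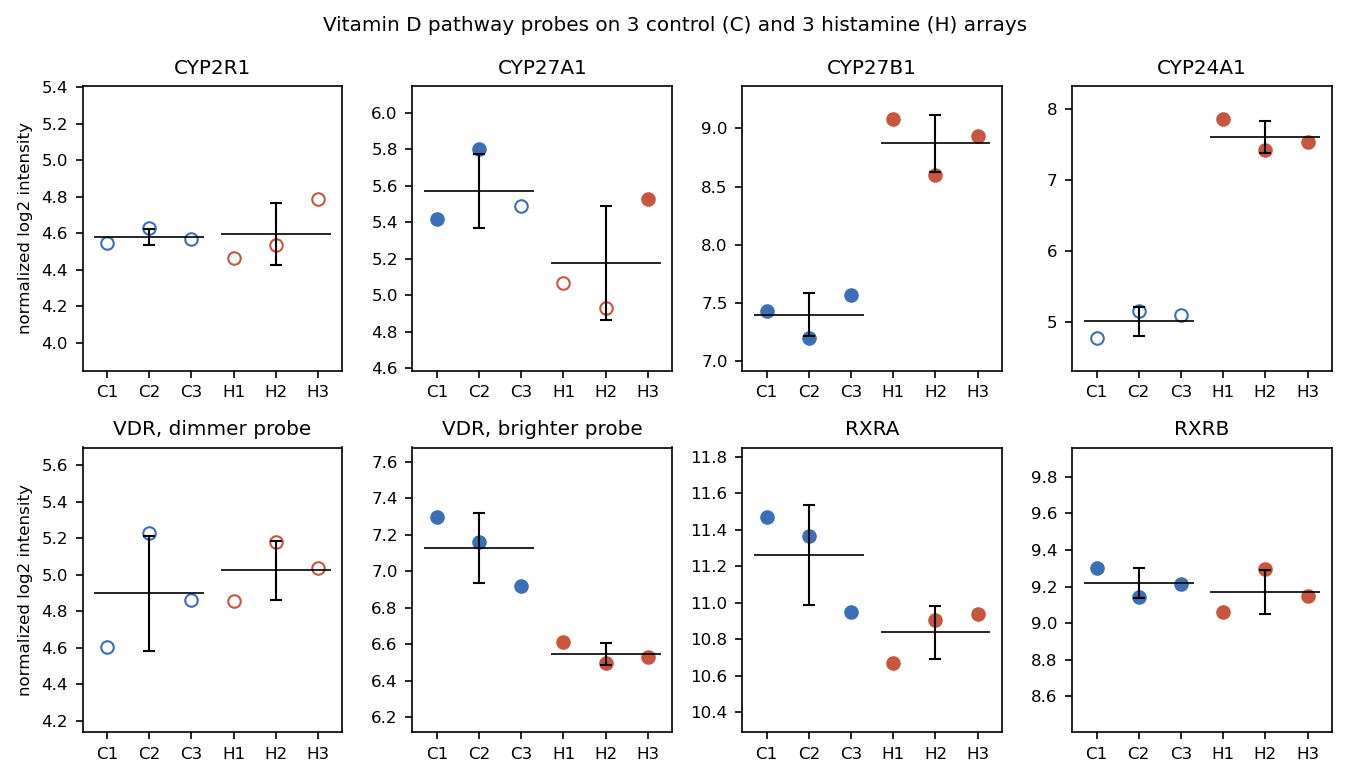
Normalized log2 intensity (vertical axis, its range set per panel) of the 8 probes on control arrays C1 to C3 (blue) and histamine arrays H1 to H3 (red). Filled points were detected (p under 0.05), open points were not, and lines with bars give group means ± SD. The histamine points of CYP24A1 and CYP27B1 lie well above their control points, those of the brighter VDR probe and of RXRA lie below, and CYP2R1 and the dimmer VDR probe have open points only.

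The probes of CYP2R1 and CYP27A1, enzymes of the first hydroxylation step with 1 probe each, read close to or below the detection limit in HaCaT cells. Normalized intensities are background corrected, quantile normalized and on the log2 scale, so they can be compared between arrays for a probe and not between probes. The CYP2R1 probe had normalized log2 intensities of 4.54, 4.63 and 4.57 without histamine and 4.47, 4.54 and 4.79 with it. These lie under the lowest value of any detected probe, which was 5.32 to 5.50 across arrays, so no level or difference can be stated for CYP2R1. The CYP27A1 probe read 5.42, 5.80 and 5.49 in the control group and 5.07, 4.93 and 5.53 with histamine. It was detected on 2 of 3 control arrays and 1 of 3 histamine arrays, and the groups overlapped. Its log2 difference (histamine minus control) was -0.39 ± 0.28 (the moderated SE of limma, n = 3 per group), with a 95% interval from -0.99 to 0.20.

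CYP27B1, the enzyme that makes calcitriol, was detected on all 6 arrays. Its normalized log2 intensity was 7.43, 7.20 and 7.57 in controls and 9.08, 8.60 and 8.93 with histamine. Every histamine array was above every control array, by at least 1.03, and histamine replicate 2 was the lowest of its group. The group means were 7.40 ± 0.19 and 8.87 ± 0.25 (SD, n = 3 each), a log2 difference of 1.47 ± 0.18 (moderated SE). Without histamine replicate 1, the array with the highest muscle marker sum, the difference was 1.36.

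CYP24A1, the enzyme that breaks calcitriol down, was detected only in the histamine group. Its normalized log2 intensity was 4.77, 5.15 and 5.10 in the control group, with no array detected (detection p-values of 0.474, 0.108 and 0.162), and 7.86, 7.42 and 7.53 in the histamine group, with all 3 detected. The group means were 5.00 ± 0.21 and 7.60 ± 0.23 (SD, n = 3 each), and the control mean and SD are those of readings that were not detected. Because the control level is known only as not well above background, the change is a bound. With each control value raised to the lowest detected value on its array, the increase of CYP24A1 was at least 4.60-fold, and at least 4.22-fold without histamine replicate 1.

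The signals as deposited separate the groups of both enzymes without any correction. The bead signal of CYP24A1 was 108, 145 and 134 in controls, each under the lowest signal of a detected probe on that array (133, 153 and 147). On the histamine arrays it was 303, 241 and 283, against 135, 134 and 138 for the lowest detected probe. CYP27B1 had bead signals of 271, 304 and 274 without histamine and 583, 422 and 593 with it. In both genes the lowest histamine signal exceeded the highest control signal. The bounds hold for the processing they were computed with. Without background correction the bound of CYP24A1 was 2.11-fold and with an offset of 50 in place of 16 it was 3.0-fold. In the authors' processed value table, whose exact log2-like transform the sources used here do not give, the differences of CYP24A1 and CYP27B1 were 0.89 and 0.92, so the larger change of CYP24A1 is not seen there.

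**Figure D2:**
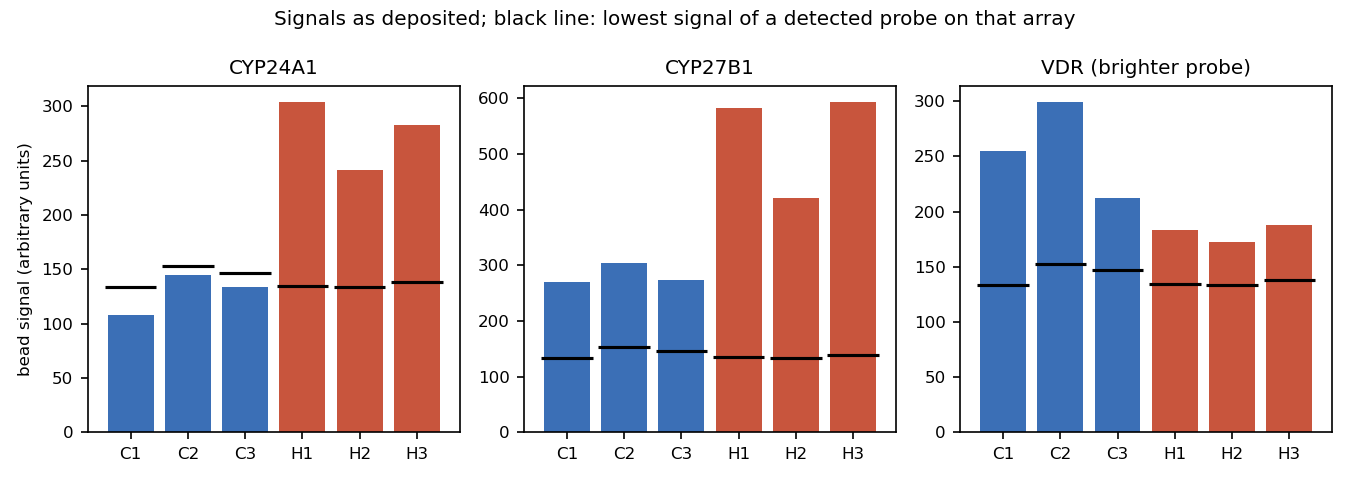
Bead signal as deposited (vertical axis, arbitrary units, from 0) of CYP24A1, CYP27B1 and the brighter VDR probe on control arrays C1 to C3 (blue) and histamine arrays H1 to H3 (red), with a black line at the lowest signal of a detected probe on each array. The CYP24A1 bars are below the line on every control array and above it on every histamine array, whereas the CYP27B1 and VDR bars exceed it throughout.

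The receptor of calcitriol was lower with histamine on the probe that detects it. The brighter VDR probe had normalized log2 intensities of 7.30, 7.16 and 6.92 in the control group and 6.61, 6.50 and 6.53 in the histamine group. All histamine arrays were below all control arrays, and control replicate 3 lay nearest to them. The means were 7.13 ± 0.19 and 6.55 ± 0.06 (SD, n = 3 each), with a log2 difference of -0.58 ± 0.21 (moderated SE). Leaving out 1 array gave -0.68 to -0.49, with -0.61 without histamine replicate 1. The VDR difference was -0.31 without background correction and -0.77 with median scaling. The dimmer VDR probe was detected on no array and adds no level for VDR. In bulk RNA fewer cells that carry a transcript and less of it per cell cannot be told apart.

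Of the retinoid X receptors, RXRA was lower with histamine and RXRB overlapped. RXRA read 11.47, 11.37 and 10.95 without histamine and 10.67, 10.91 and 10.94 with it. In these normalized values the groups did not overlap, but control replicate 3 was only 0.01 above histamine replicate 3. In bead signal as deposited the RXRA groups overlapped, with 2941, 3481 and 1943 in controls and 1601, 1712 and 2106 with histamine. The log2 difference was -0.42 ± 0.13 (moderated SE, n = 3 per group; means 11.26 ± 0.27 and 10.84 ± 0.15, SD). Single arrays move it: it was -0.32 without control replicate 1, -0.34 without histamine replicate 1 and -0.58 without control replicate 3. RXRB gave 9.30, 9.14 and 9.21 without histamine and 9.06, 9.30 and 9.15 with it. Its log2 difference was -0.05 ± 0.13 with a 95% interval from -0.33 to 0.23. RXRG, the third retinoid X receptor, was detected on 1 control array and no histamine array.

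**Figure D3:**
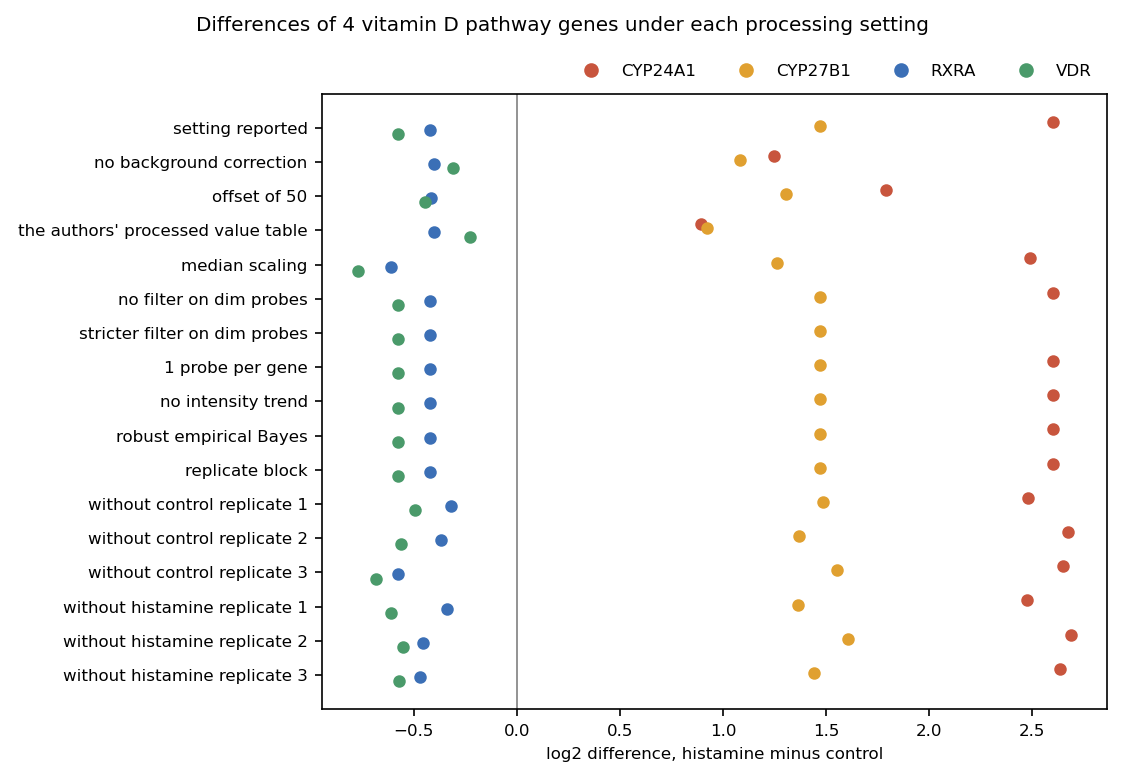
Log2 difference, histamine minus control (horizontal axis), of CYP24A1, CYP27B1, RXRA and VDR (brighter probe) under the reported setting and each alternative (rows). CYP24A1 and CYP27B1 lie above 0 wherever they were fitted, and RXRA and VDR lie below it. The CYP24A1 point, fitted against control values that were not detected, is at 2.60 as reported, 1.25 without background correction and 0.89 in the processed table.

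Other array differences moved alongside these genes. CYP24A1 and CYP27B1 had the same order of normalized intensity within the histamine group, with replicate 1 highest and replicate 2 lowest, although in bead signal CYP27B1 was highest on replicate 3. Of 12 immune cell markers on the array 7 were detected on no array, among them PTPRC, the pan-leukocyte CD45, and CD163 of macrophages, a cell type that can also express CYP27B1. The summed intensity of the immune list was 486, 500 and 648 in controls and 866, 846 and 834 with histamine, and CD68, the 1 marker of the list that passed the filter, rose by 1.26 on the log2 scale. Their part in the CYP27B1 and CYP24A1 differences was not tested.

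The genes whose profile over the 6 arrays lay nearest to CYP24A1 and CYP27B1 were also sought. Likeness was the root mean square difference of log2 values, each gene centred on its own mean over the 6 arrays, and each gene was read on its brightest probe. SPRR2F, a precursor of the cornified envelope, lay nearest to CYP24A1 at 0.22, followed by the stress keratin KRT16 at 0.23 and the antimicrobial protein S100A7 at 0.30. ANP32A, a nuclear phosphoprotein, and TFPI2, a protease inhibitor, followed at 0.32 and 0.37. S100A7, like CYP24A1, was detected on no control array and was at least 5.59-fold higher, and the log2 differences of the other 4 genes were 1.89 to 2.49. SPRR2F was detected on only 1 control array, so its difference and its distance to CYP24A1 rest in part on control readings near background. Nearest to CYP27B1 were the neutrophil chemokine CXCL1 at 0.12, the phosphodiesterase PDE8A at 0.13 and the splicing factor SRSF11 at 0.14. ANXA10, an annexin, and DLG1, a scaffold protein of cell junctions, lay at 0.15 and 0.16. PDE8A was detected on no control array and was at least 2.66-fold higher, and the log2 differences of the other 4 ran from 1.19 to 1.61. With 2 groups of 3 arrays this measure mostly finds genes with a difference of like size.

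Genes known to respond to calcitriol through VDR in other cells moved both ways. Of 38 such genes 37 were on the array and 24 had a tested probe. Of these 5 rose, 2 fell and 17 did not pass, or 29.2% called, in either direction, against 20.4% of all 10406 genes read on their brightest probe. The median log2 difference was 0.14, against -0.08 over all genes. With median scaling 4 were called (2 rose and 2 fell), and without the intensity trend also 4.

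GADD45A, a growth arrest and DNA damage gene, rose most in this list. Its normalized log2 intensity was 9.20, 9.40 and 9.76 without histamine and 10.57, 10.69 and 10.95 with it, a log2 difference of 1.28 ± 0.15 (limma adjusted p = 6.77e-06), with 1.32 on its other probe. SERPINB1, an inhibitor of neutrophil proteases, rose by 0.88 ± 0.12 (limma adjusted p = 3.18e-05). IGFBP3, which binds insulin-like growth factors, rose by 0.56 ± 0.11 on its brightest probe and by 1.21 ± 0.12 on the other (limma adjusted p = 0.00110 and 8.28e-07). The IGFBP3 groups did not overlap on either probe, and the call of the brightest one was lost with median scaling. CDKN1A, the cell cycle inhibitor p21, and CEBPD, a transcription factor, were the other genes that rose, by 0.51 and 0.42. Both calls were also lost with median scaling, where only GADD45A and SERPINB1 of this list rose. SLC37A2, a sugar phosphate carrier, fell by 1.44 ± 0.24 (limma adjusted p = 0.000328), from 7.33, 7.34 and 7.49 to 5.92, 6.40 and 5.54. Its difference was -0.72 without background correction and -0.52 in the authors' processed value table. CA2, a carbonic anhydrase, fell by 0.50, with -0.40 on its other probe. ATP2B1, a calcium pump of the plasma membrane, had a difference of 0.68 ± 0.26 that did not pass (limma adjusted p = 0.0669), with 0.09 on its other tested probe.

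Several of the best known VDR targets had no measurable level. CAMP, the cathelicidin precursor, the calcium-binding proteins S100G and CALB1, and the matrix protein SPP1 were each detected on no array. CD14, a lipopolysaccharide co-receptor, and IVL, the envelope protein involucrin, had differences of 0.16 and 0.13 that did not pass (limma adjusted p = 0.500 and 0.791). IVL was detected on 1 of 3 control arrays and 2 of 3 histamine arrays. It lay close to the detection limit, so its lack of a call says little. ASAP2 gave -0.10 on its brightest probe, -0.23 on the next brightest, which did not pass, and 0.86 on a dimmer one that passed, so its probes disagree.

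Among coregulators that VDR shares with other nuclear receptors, more fell than rose. Of 20 genes 16 were on the array and 15 had a tested probe. Of these 1 rose, 7 fell and 7 did not pass, or 53.3% called against 20.4% of all genes, with a median log2 difference of -0.36 against -0.08. Because the list was chosen with earlier results of these data known, nothing is read from that share. The count of 8 fell to 5 with no filter on dim probes and to 4 without histamine replicate 3. It was also 5 with a stricter filter, which removed EP300, HR and MED17 before the fit. EP300, a histone acetyltransferase, had the largest decrease. It fell by 1.57 ± 0.23 (limma adjusted p = 8.67e-05), from 7.26, 7.19 and 6.88 to 5.58, 5.51 and 5.53, and no array of one group overlapped the other. The histamine values of EP300 lay just above the lowest detected values on those arrays (5.45, 5.46 and 5.45), so the size of its decrease depends on the background. Without background correction its difference was -0.72 and in the authors' processed value table -0.50. CREBBP, the paralog of EP300, fell by 0.54 ± 0.13 (limma adjusted p = 0.00529).

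MED24, a subunit of the Mediator complex that bridges receptors to RNA polymerase, fell by 0.66 ± 0.15 (limma adjusted p = 0.00425), with -0.78 on its other probe. MED17, also of Mediator, and HR, the hairless corepressor that binds VDR, fell by 0.71 ± 0.25 and 0.81 ± 0.27 (limma adjusted p = 0.0471 and 0.0387). Both were detected on 2 of 3 histamine arrays, so the sizes of these decreases depend on the background. Without background correction MED17 and HR gave -0.30 and -0.33. In the authors' processed value table they gave -0.20 and -0.22, and neither passed. The MED17 call was lost on leaving out any 1 array, and that of HR on leaving out any of 4 arrays, control replicates 1 and 2 and histamine replicates 2 and 3. HDAC3, of corepressor complexes, fell by 0.36 and TBL1XR1, also of them, fell by 0.52. HNRNPC, an RNA-binding protein reported to bind vitamin D response elements, rose by 0.93 ± 0.18 (limma adjusted p = 0.00108), but its other probe gave -0.28 and did not pass. MED1, the subunit that contacts VDR directly, differed by 0.34 and by -0.10 on its other probe, and neither passed.

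None of the 5 measured genes of vitamin D transport, precursor supply and electron transfer passed on its brightest probe, of 16 in the list and 13 on the array. FDX1 and FDX2, ferredoxins of which FDX1 feeds electrons to the mitochondrial enzymes CYP24A1, CYP27B1 and CYP27A1, differed by -0.36 ± 0.31 and -0.32 ± 0.14. POR, the reductase that serves CYP2R1, differed by 0.38 ± 0.28, and CYP11A1, a steroid enzyme that can also hydroxylate vitamin D, by -0.001 ± 0.27. FDX1 was detected on 1 of 3 histamine arrays and CYP11A1 on 2 of 3 control arrays. Both lay close to the detection limit, so their lack of a call says little. The POR groups overlapped, with histamine replicate 3 at 6.98 and all other arrays between 5.71 and 6.12. DHCR7, which draws the vitamin D precursor into cholesterol, gave -0.11 ± 0.13 on its brightest probe. A second DHCR7 probe of nearly the same brightness gave 0.51 ± 0.14 and passed (limma adjusted p = 0.0159), so the probes disagree. LRP2 and CUBN, the uptake receptors for the vitamin D binding protein, were detected on no array.

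Genes that regulate the hydroxylases or VDR in other settings passed about as often as all genes did. Of 25 genes 22 were on the array and 12 had a tested probe; 2 rose, 1 fell and 9 did not pass, or 25.0% called against 20.4% of all genes, with a median log2 difference of -0.03. IL1B, a proinflammatory cytokine, read 9.15, 9.12 and 8.99 without histamine and 9.94, 9.49 and 10.01 with it. It rose by 0.73 ± 0.15 (limma adjusted p = 0.00160), a call lost with median scaling. EGFR, the epidermal growth factor receptor, fell by 0.61 ± 0.12 (limma adjusted p = 0.00112), with -0.80 on its other tested probe. IL13RA1, a receptor chain for the cytokines IL4 and IL13, rose by 0.37 ± 0.12 (limma adjusted p = 0.0361) and lost its call with median scaling and on leaving out any 1 array except control replicate 3. IL4R, its partner chain, differed by 0.41 ± 0.16 and CEBPA, a transcription factor, by -0.40 ± 0.21, neither of which passed. TLR2 and TGFB1, both known to raise CYP27B1 in keratinocytes, were detected on no array, as were TNF and the repressor SNAI1, and CEBPB, which cooperates with VDR at CYP24A1, differed by -0.22 and did not pass.

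**Figure D4:**
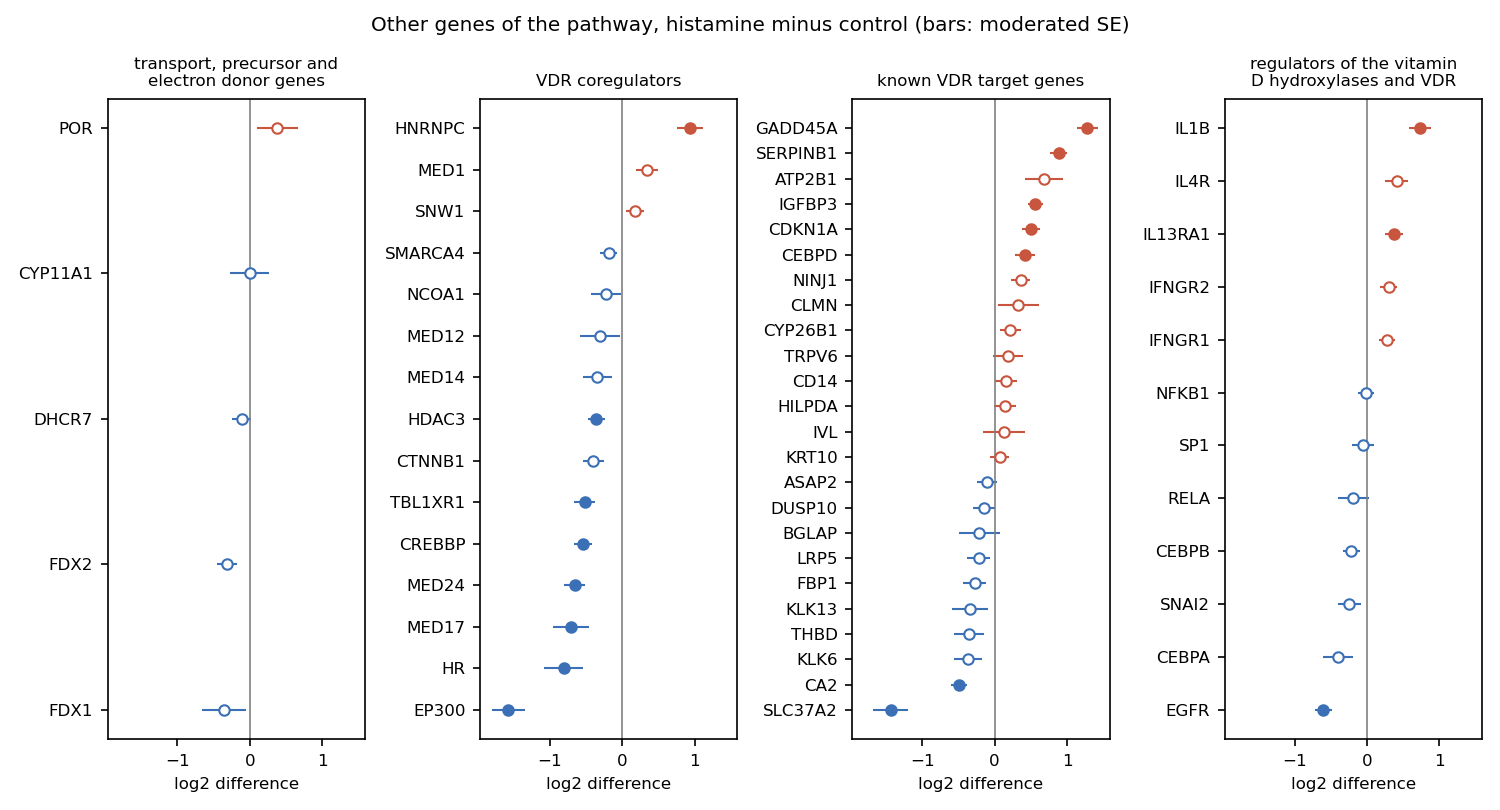
Log2 difference, histamine minus control (horizontal axis), of the measured genes of the 4 other vitamin D lists, each on its brightest probe, with the moderated SE as bars. Filled points passed an adjusted p-value of 0.05 over all probes and open points did not. The coregulators lie mostly left of 0 with EP300 lowest, the VDR targets spread from SLC37A2 at -1.44 to GADD45A at 1.28, and no point of the transport and electron donor list is filled.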

How the data were processed

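HaCaT RNA of 3 control and 3 histamine samples was measured on bead arrays. Deposited intensities are the mean signal of each probe's beads, with no background subtraction or normalization, per the file headers and values. The detection p-value of each probe, deposited beside it, ranks its signal among the negative control beads of that array. The authors' processed table holds log2-like values with the same distribution on every array. GenomeStudio 2010.1 and lumi are named per the submitters' processing notes.

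Signals were background corrected with limma 3.58.1 in R 4.3.3 (normexp, negative controls inferred from detection p-values, offset 16), quantile normalized and log2 transformed; the offset compresses folds of dim probes. Kept probes were detected (p-value under 0.05) on 3 or more of the 6 arrays. Symbols came from the platform annotation (30112 probes with 1 symbol, 8 with several, 17202 with none), with 0 updated by Entrez identifier. The 2 groups were compared with limma (empirical Bayes, intensity trend, 2-sided, Benjamini-Hochberg over all kept probes); a gene was read on its kept probe with the highest mean. "Rose" and "fell" mean an adjusted p-value under 0.05, and "called" means either; the 7 genes get no test. The number of arrays limits the precision. On simulated data for this comparison (17871 probes), the fit recovered 30 of 100 probes changed by 0.75 and 83 of 100 changed by 1.5 on the log2 scale, with 3 false calls. Only these probes were changed, a far smaller share than the 21.9% called in the data. Adjusted p-values depend on that share, so recovery in the data can differ. A probe detected on no array of 1 group gets a bound, its values there raised to the lowest detected value of each array.

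The genes and lists were chosen with earlier results of these data known. Named genes are all probes of the 7 genes, in each list up to 5 genes of largest absolute difference, and the 5 nearest profiles of the 2 genes with the largest difference. Others were named after their values were seen. Alternatives were other background corrections, the processed table, median scaling, other filters, 1 probe per gene, other variance models, a replicate block and leaving out each array. The labels give no slide or scan date, so no batch could be fitted; control and histamine samples carry sample names of different numbered series, which cannot be told apart from the treatment.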

Additional observations from a re-analysis of the deposited data

How the results depend on the processing

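CYP24A1 and CYP27B1 were higher, and VDR and RXRA lower, under every alternative in which they were fitted; the stricter filter removed CYP24A1 and CYP27A1. Leaving out 1 array gave 2.47 to 2.69 for CYP24A1, 1.36 to 1.61 for CYP27B1, -0.68 to -0.49 for VDR and -0.58 to -0.32 for RXRA. Without background correction the differences of CYP24A1, CYP27B1 and VDR were 1.25, 1.08 and -0.31. With an offset of 50 that of CYP24A1 was 1.79. In the processed table CYP24A1, CYP27B1, VDR and CYP27A1 gave 0.89, 0.92, -0.23 and -0.10. Median scaling gave -0.77 for VDR and -0.25 for RXRB. The bound on CYP24A1 was 2.11-fold without background correction, 3.0-fold with an offset of 50 and 1.71-fold in the processed table, where floor and scale differ, and 4.22-fold to 4.90-fold on leaving out 1 array. Leaving out 1 array moved RXRB from -0.11 to 0.0057 and CYP11A1 from -0.11 to 0.16. Median scaling moved the median difference of all genes from -0.08 to -0.26 and the calls to 1114 higher and 2843 lower, against 1968 and 1947. Probes called numbered 3915, 2220 with 1 probe per gene (fewer features tested), and 2490 to 4514 on leaving out 1 array, lowest without control replicate 2. Of the lists, coregulators called numbered 5 with either other filter and 4 to 8 on leaving out 1 array. VDR targets numbered 4 with median scaling and without the trend, and 6 to 7 on leaving out 1 array. Regulators ran from 2 to 4, and the transport list stayed at 0 on leaving out 1 array. With the replicate number as a block 3531 probes were called, and MED17 and IL13RA1 lost their calls (limma adjusted p = 0.0578 and 0.0605). Same-numbered arrays did not deviate together (correlations of -0.03 to -0.02), so the numbers were not taken to pair samples. The causes of the other shifts were not tested. Signals near background limit CYP24A1 and SPRR2F in controls, and EP300, HR and MED17 with histamine. They also limit IVL, FDX1, CYP11A1, CYP27A1, CYP2R1 and the dimmer VDR probe.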
